A study of Mus musculus with 8 samples.

Results

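The genes described here regulate how many mitochondria a muscle fibre builds: the PGC-1 coactivators, their helper Perm1, the ERR nuclear receptors, and the factors NRF-1, GABP and TFAM. The 10 members, Ppargc1a, Ppargc1b, Pprc1, Perm1, Esrra, Esrrb, Esrrg, Nrf1, Gabpa and Tfam, were chosen by name from the 25655 gene rows of the count table. All 10 have a row, and 9 had enough reads to be tested, among 9810 genes tested in all. Expression was measured in the gastrocnemius, a calf muscle, of wild-type male mice on day 4, with 5 libraries from controls that received 10% glycerol and 3 libraries from the sepsis arm, where cecal slurry (gut contents in suspension) spreads many kinds of bacteria. Neither the animals' age nor strain is given in the sources used here, and the labels do not say that each library came from a separate animal, so the p-values speak of the spread among these libraries, which may be technical. Nrf1 here is the nuclear respiratory factor gene and not Nfe2l1 or Nfe2l2, which share its nickname.

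PGC-1 proteins do not bind DNA themselves. They are recruited by transcription factors, above all by ERRα, ERRγ and the PPARs, and they switch on genes of the respiratory chain, the tricarboxylic acid (TCA) cycle and fatty acid oxidation. NRF-1 and GABP act on many of the same nuclear genes and on Tfam, whose protein packages mitochondrial DNA and starts its transcription. In muscle this network is known for its response to endurance exercise, cold and fasting.

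Each library held between 3086277 and 4016329 reads, and 1 read was worth between 0.21 and 0.362 CPM, the unit used here for reads scaled to a common library size. The libraries read the 3′ ends of transcripts, so levels, on library sizes scaled by trimmed means (TMM), were not divided by length, and no level is compared between genes. Such reads also do not tell apart transcripts of a gene that start at different promoters. The septic libraries were less alike than the controls, with a chi-square per degree of freedom of 12.4 to 30.6 against 2.15 to 7.65. The library sepsis 3 lay farthest from the controls on the first principal component, at 78.0 against 48.7 and 62.9 for the other septic libraries and -40.3 to -34.6 for controls. The 10 myofibre markers summed to between 179061 and 213444 CPM in controls and between 77172 and 109370 CPM in sepsis. The 10 leukocyte markers summed to between 50.6 and 125 CPM in controls and between 224 and 366 CPM in sepsis. Of these 10, 6 were tested and 4 were higher, while Csf1r and Tyrobp did not pass and Cd79a had no read. Mean levels of Cd68 went from 3.60 to 110 CPM and those of Lyz2 from 31.5 to 115 CPM. The 7 fibroblast and tenocyte markers summed to between 850 and 1517 CPM in controls and between 268 and 371 CPM in sepsis, with 6 of 7 lower, and of the 7 endothelial markers 4 were higher and 1 lower. In bulk tissue, fewer cells of a type and less RNA per cell cannot be told apart. The part of these shifts in the results below was not tested.

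In edgeR's quasi-likelihood fit, adjusted by Benjamini-Hochberg over all genes tested, 4 of the 9 tested members passed the threshold of 0.05. In all, 50.4% of tested genes passed. Perm1, Esrra and Ppargc1b were lower in sepsis and Gabpa was higher, against 25.2% of all tested genes lower and 25.2% higher. The share of members that passed was thus close to that of all genes. The median log2 fold change, sepsis minus control, was -0.42 over the 9 members and 0.01 over all genes tested. The same 4 members were those whose groups did not overlap in CPM, a pattern found in 47.5% of all tested genes, 24.3% lower and 23.1% higher.

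**Figure D1:**
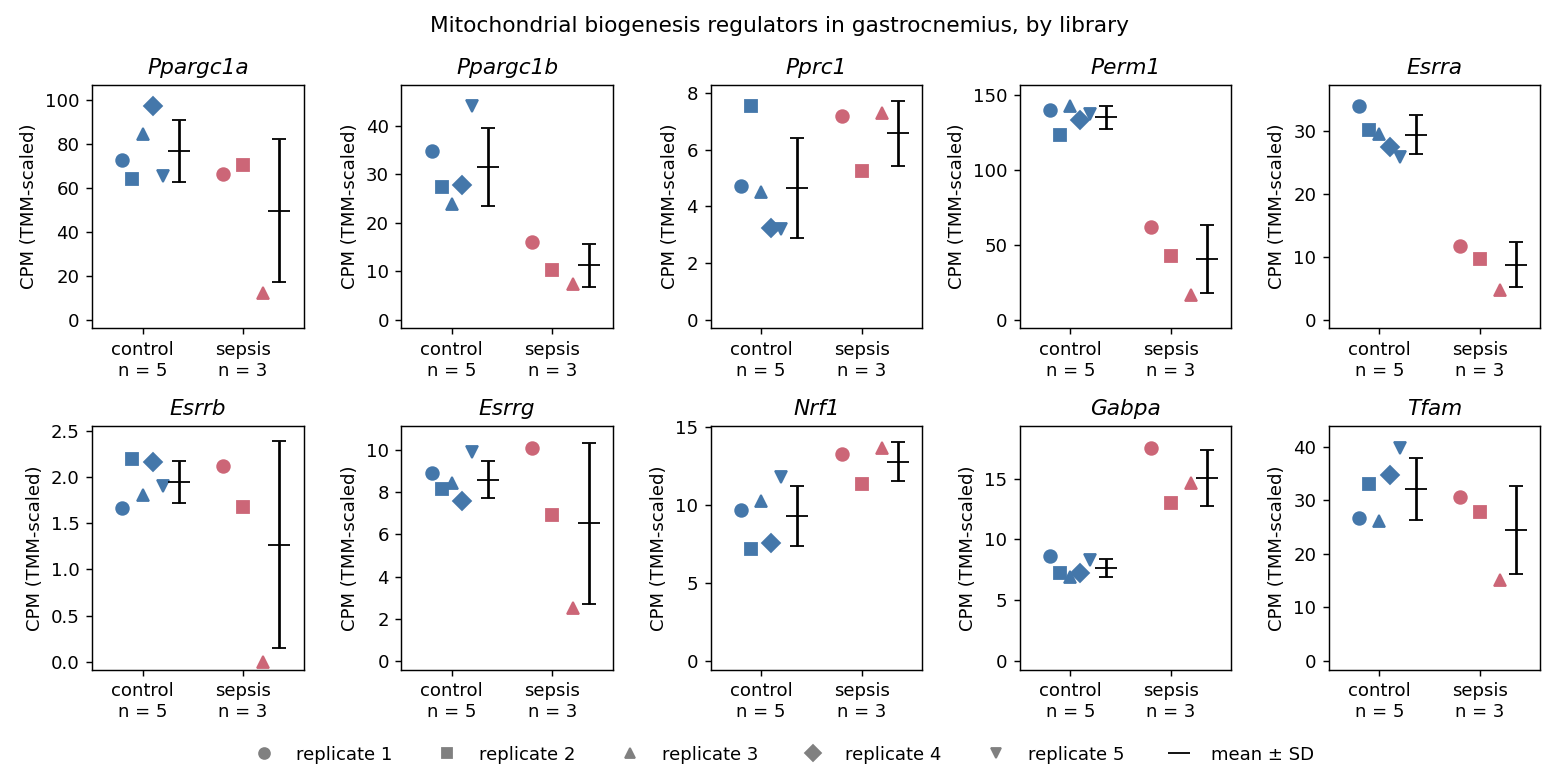
Level of each of the 10 genes in CPM (vertical axis) in the 5 control and 3 septic libraries. Each symbol is 1 library, its shape gives the replicate number, and bars show mean ± SD. Perm1, Esrra and Ppargc1b lie lower in every septic library than in any control, Gabpa lies higher in every septic library, and sepsis 3 is the lowest library for Ppargc1a, Esrrb, Esrrg and Tfam.

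Promoter sequences are shown for the 3 members whose window holds a motif of this network. Of the 10 members, 9 matched the RefSeq promoter table (build GRCm38.p6), with 14 windows that run from 250 bases before to 50 bases after a transcript's start. Ppargc1b had no entry. The motifs searched, on both strands, were the ERR element TCAAGGTCA and its core AAGGTCA, the palindromic NRF-1 element and its shorter form GCATGCGC, the GABP-type ETS element CCGGAAGT and the cAMP response element TGACGTCA. Each core or shorter form lies inside its longer form. The sequences run 5′ to 3′ on the gene's strand, and capitals mark the matched motif.
Esrra, chr19:6921759-6922058, minus strand: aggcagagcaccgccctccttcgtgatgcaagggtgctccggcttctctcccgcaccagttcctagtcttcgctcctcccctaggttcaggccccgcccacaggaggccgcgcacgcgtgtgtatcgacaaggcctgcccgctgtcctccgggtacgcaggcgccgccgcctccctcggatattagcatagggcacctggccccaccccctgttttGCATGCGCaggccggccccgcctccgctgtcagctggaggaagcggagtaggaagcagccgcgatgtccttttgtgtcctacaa
Perm1, chr4:156215677-156215976, plus strand: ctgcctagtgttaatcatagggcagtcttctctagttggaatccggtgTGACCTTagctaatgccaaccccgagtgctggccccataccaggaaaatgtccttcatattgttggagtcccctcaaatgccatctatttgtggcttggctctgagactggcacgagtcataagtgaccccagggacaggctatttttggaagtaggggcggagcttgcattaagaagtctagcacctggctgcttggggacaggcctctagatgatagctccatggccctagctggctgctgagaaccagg
Tfam, chr10:71237995-71238294, minus strand: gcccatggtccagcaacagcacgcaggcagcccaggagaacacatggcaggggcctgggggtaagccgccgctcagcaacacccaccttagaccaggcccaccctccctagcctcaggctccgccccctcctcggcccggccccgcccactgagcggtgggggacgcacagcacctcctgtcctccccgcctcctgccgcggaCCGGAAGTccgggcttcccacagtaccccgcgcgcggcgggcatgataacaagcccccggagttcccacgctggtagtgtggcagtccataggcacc

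The Esrra window held the shorter NRF-1 form, its first base 34 bases before the start, a form found in 2.71% of all 32851 windows. Perm1 held the ERR core in reverse, as TGACCTT, 202 bases before the start, and 4.72% of all windows hold that core. Tfam held the ETS element 47 bases before the start, as do 3.89% of all windows. The windows of Ppargc1a, Pprc1, Esrrb, Esrrg, Nrf1 and Gabpa held none of these letters. A match is a description of the sequence and shows no binding.

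Among the coactivators, Ppargc1b fell and Ppargc1a did not pass the test. Ppargc1a (ENSMUSG00000029167) encodes PGC-1α, the family member induced by exercise and cold. In controls 1 to 5 it was at 73.0, 64.3, 84.6, 97.3 and 65.3 CPM, and in sepsis 1 to 3 at 66.5, 70.4 and 12.1 CPM. Sepsis 1 and 2 thus lay within the range of the controls, and sepsis 3 lay far below every other library with 53 reads, where a count of that size has an exact 95% Poisson interval of 39.7 to 69.3 reads. The fitted log2 fold change was -0.63 (SE 0.49), with a 95% interval of -1.77 to 0.51 and an adjusted p of 0.32 in edgeR. Without sepsis 3 the log2 fold change was -0.165, with an adjusted p of 0.418, and without sepsis 2 it was -0.98, with an adjusted p of 0.215.

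Ppargc1b (ENSMUSG00000033871) encodes PGC-1β, a close relative that also coactivates ERRα. Its levels were 34.7, 27.3, 23.8, 27.8 and 44.0 CPM in controls 1 to 5 and 16.0, 10.3 and 7.31 CPM in sepsis 1 to 3. Every septic library lay below every control, and the mean went from 31.5 ± 8.0 CPM (SD, n = 5) to 11.2 ± 4.39 CPM (n = 3). The log2 fold change was -1.51 (SE 0.27), a 2.84-fold fall, with an adjusted p of 0.000453 in edgeR. It was -1.28 without sepsis 3, where the adjusted p was 0.00121.

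That Ppargc1b passed and Ppargc1a did not is not in itself a difference between them, so their balance was compared inside each library, where scaling has no part. Ppargc1b made up 32.2%, 29.8%, 21.9%, 22.3% and 40.2% of the reads of the pair in controls 1 to 5 and 19.4%, 12.8% and 37.6% in sepsis 1 to 3. In sepsis 1 and 2 the share was below every control, and in sepsis 3 it was among the highest of the 8. The group means were 29.3% ± 7.62 and 23.3% ± 12.9, with p = 0.357 in a two-sided exact permutation test over 56 splits and an adjusted p = 0.357 over the 2 family comparisons. A change of balance between the 2 coactivators was therefore not detectable across these libraries.

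Pprc1 (ENSMUSG00000055491) encodes the PGC-1-related coactivator PRC, a growth-responsive family member. It had 9 to 24 reads in controls, or 3.19 to 7.53 CPM with a median of 4.52, and 27, 25 and 32 reads in sepsis, or 7.18, 5.25 and 7.31 CPM. Control 2 was above all 3 septic libraries and the other controls were below them. The log2 fold change was 0.49 (SE 0.30), with a 95% interval of -0.16 to 1.13 and an adjusted p of 0.195 in edgeR. It passed only with library totals alone in place of TMM, at 0.896 and an adjusted p of 0.0212. Exons of Pprc1 overlap exons of Ldb1 on the other strand in the GENCODE M21 annotation. Ldb1 covers the 5′ end of Pprc1 and not its 3′ end. Ldb1 had a log2 fold change of 0.72 (SE 0.27) with an adjusted p of 0.0375 in edgeR, the same direction as Pprc1, and its call was lost in 9 of 17 alternatives.

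Perm1 (ENSMUSG00000078486), a muscle-specific regulator induced by PGC-1 and ERR that sustains oxidative gene expression, fell. Its levels were 140, 123, 142, 133 and 137 CPM in controls 1 to 5 and 62.0, 42.4 and 16.7 CPM in sepsis 1 to 3. The controls formed a narrow band of 135 ± 7.65 CPM, and all 3 septic libraries lay below it and apart from each other, at 40.4 ± 22.7 CPM. The log2 fold change was -1.75 (SE 0.33), a 3.36-fold fall, with an adjusted p of 0.00184 in edgeR. Over 17 alternatives it lay between -2.19 without sepsis 1 and -1.34 with library totals alone, and it passed in each.

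Of the ERR receptors, Esrra fell and Esrrg did not pass the test. Esrra (ENSMUSG00000024955) encodes ERRα, the orphan nuclear receptor through which PGC-1 proteins reach most respiratory chain genes. It was at 33.9, 30.1, 29.5, 27.5 and 25.8 CPM in controls 1 to 5 and at 11.7, 9.66 and 4.79 CPM in sepsis 1 to 3. The highest septic library lay below the lowest control, and the means were 29.4 ± 3.04 and 8.72 ± 3.55 CPM. The log2 fold change was -1.76 (SE 0.24), a 3.38-fold fall, with an adjusted p of 4.91e-05 in edgeR, and it lay between -2.01 and -1.34 over the 17 alternatives, past the threshold in each.

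One neighbour bears on the reading of Esrra. In the annotation, Trmt112, a cofactor gene of RNA and protein methyltransferases, runs on the opposite strand and its end covers the 3′ end of Esrra. The strand setting of the counts is not given in the sources used here, so reads from the 2 genes may not have been told apart. Trmt112 went the other way, from 68.1 ± 4.14 to 156 ± 29.1 CPM, a log2 change of 1.20 (SE 0.13) with an adjusted p of 6.91e-06 in edgeR.

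Esrrg (ENSMUSG00000026610) encodes ERRγ, the receptor of oxidative fibres and heart. Controls ranged from 7.59 to 9.88 CPM with a median of 8.43, and sepsis 1 to 3 were at 10.1, 6.93 and 2.51 CPM, which spans the controls on both sides. Its log2 fold change was -0.42 (SE 0.33), with a 95% interval of -1.13 to 0.30 and an adjusted p of 0.319 in edgeR. The value was -0.0272 without sepsis 3, -0.852 without sepsis 1 (adjusted p of 0.0552) and 0.00132 with library totals alone. Esrrb (ENSMUSG00000021255), the ERRβ gene known from stem cells and the inner ear, had 6 or 7 reads in each control and 8, 8 and 0 in sepsis 1 to 3. That was too few for the test, and the rate in sepsis over control was 0.641, with a 95% counting interval of 0.327 to 1.21 that includes no change.

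Within the ERR pair, the share of Esrra was lower in the septic libraries. Esrra made up 79.2%, 78.7%, 77.8%, 78.4% and 72.3% of the reads of Esrra and Esrrg in controls 1 to 5 and 53.7%, 58.2% and 65.6% in sepsis 1 to 3. The groups did not overlap, with 77.3% ± 2.82 (n = 5) and 59.2% ± 6.04 (n = 3), although single septic libraries rest on 32 to 82 reads and sepsis 3 alone has an exact binomial 95% interval of 46.8% to 81.4%. The two-sided exact permutation p was 0.0179, the smallest that 56 splits allow, and the adjusted p was 0.0357 over the 2 family comparisons. Leaving out each library in turn gave a drop of between 15.3 and 21.3 percentage points, against 18.1 with all libraries. The exact permutation p was then 0.0286 without any 1 control and 0.0476 without any 1 septic library, both unadjusted. Each is the smallest that the remaining splits allow. Groups that do not overlap over all libraries cannot overlap when a library is left out, so these p-values add little. This comparison rests on the Esrra reads and carries the same limit from Trmt112.

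**Figure D2:**
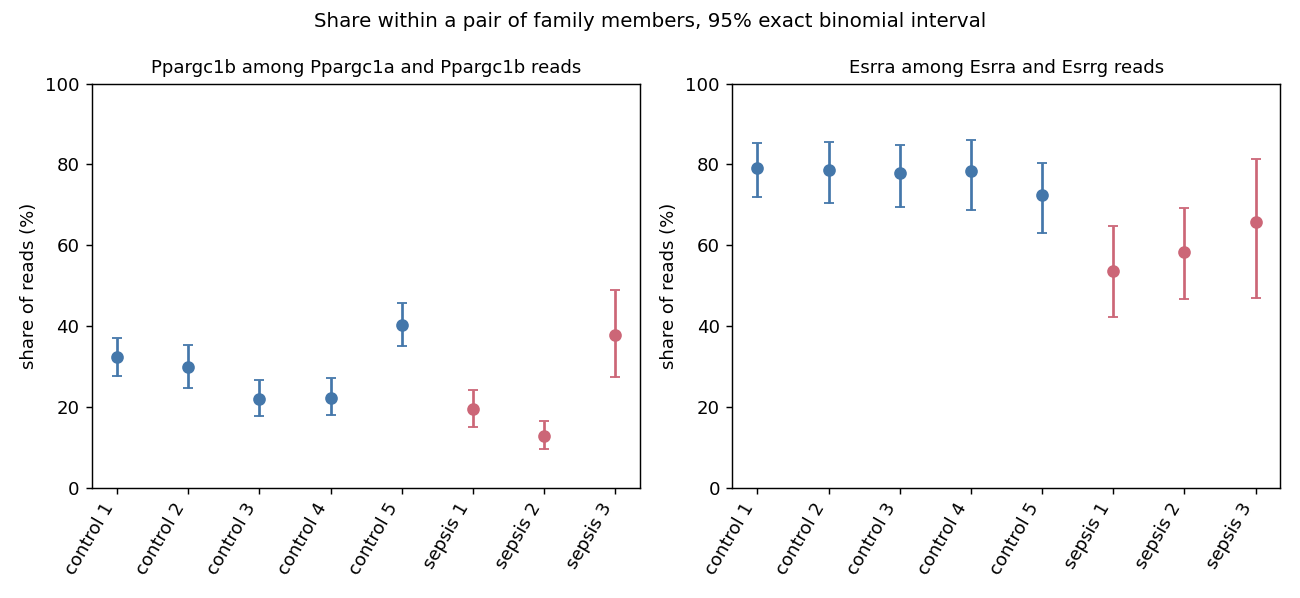
Share of reads (%, vertical axis) of Ppargc1b among Ppargc1a and Ppargc1b reads (left) and of Esrra among Esrra and Esrrg reads (right), for each of the 8 libraries. Points are libraries and bars are exact 95% binomial intervals of counting error. The Esrra share is 72.3% or more in the controls and 65.6% or less in sepsis, and the Ppargc1b share overlaps between the groups.

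Among the other DNA-binding factors, Gabpa rose, and Nrf1 and Tfam did not pass the test. Gabpa (ENSMUSG00000008976), the DNA-binding subunit of GABP, was at 8.60, 7.22, 6.93, 7.23 and 8.28 CPM in controls 1 to 5 and at 17.6, 13.0 and 14.6 CPM in sepsis 1 to 3. Every septic library lay above every control. The log2 fold change was 0.97 (SE 0.19), a 1.95-fold rise, with an adjusted p of 0.000863 in edgeR, and over 17 alternatives it lay between 0.841 and 1.38 and passed in each. Exons of the ATP synthase gene Atp5j, on the opposite strand, overlap exons of Gabpa. Atp5j covers the 5′ end of Gabpa and not its 3′ end. Atp5j moved the other way, from 404 ± 30.0 to 178 ± 27.3 CPM, a log2 change of -1.18 (SE 0.12) with an adjusted p of 5.15e-06 in edgeR.

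Nrf1 (ENSMUSG00000058440) ranged from 7.22 to 11.8 CPM in controls, with a median of 9.72, and was at 13.3, 11.3 and 13.7 CPM in sepsis 1 to 3. Sepsis 2 was below control 5, so the groups overlapped by that pair. The log2 fold change was 0.45 (SE 0.21), with an adjusted p of 0.0862 in edgeR, and it passed only with library totals alone, at 0.864 and an adjusted p of 0.00266.

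Tfam (ENSMUSG00000003923) was at 26.6, 33.0, 26.2, 34.7 and 39.8 CPM in controls 1 to 5 and at 30.6, 27.7 and 15.1 CPM in sepsis 1 to 3. Again sepsis 1 and 2 were within the controls and sepsis 3 was below them. Its log2 fold change was -0.39 (SE 0.22), with a 95% interval of -0.87 to 0.09 and an adjusted p of 0.164 in edgeR, and it was -0.135 without sepsis 3 and 0.0308 with library totals alone. Reads of mitochondrially encoded genes, the transcripts that TFAM helps to make, were 14.0%, 16.9% and 12.6% of all reads in sepsis 1 to 3 and between 21.7% and 26.7% in controls.

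**Figure D3:**
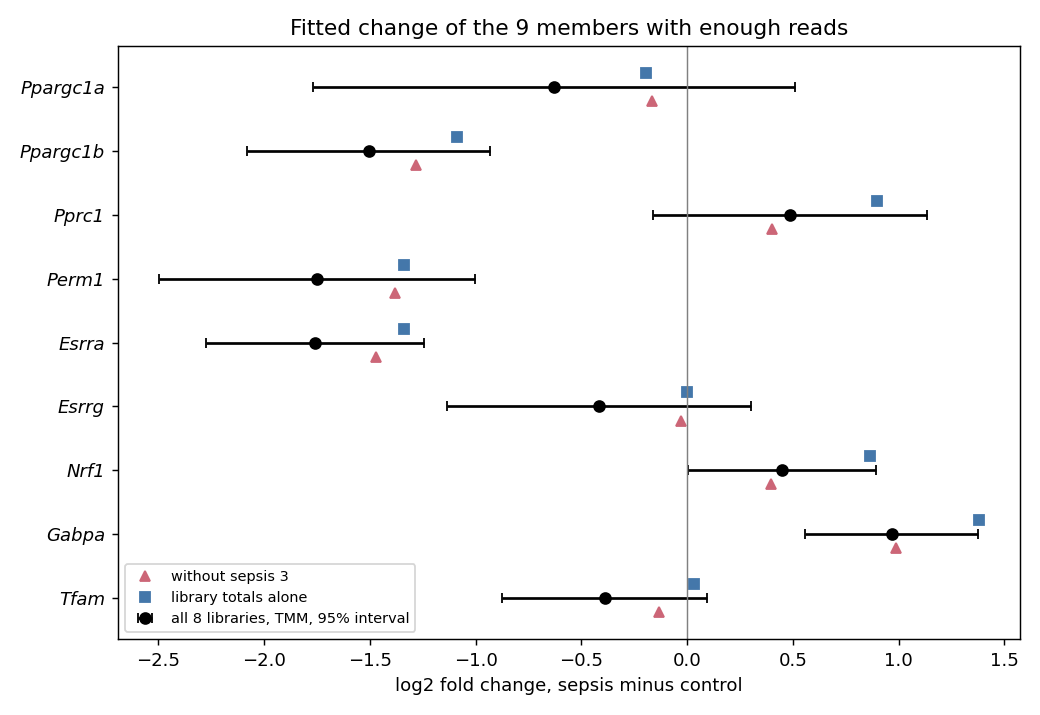
Log2 fold change, sepsis minus control (horizontal axis), of the 9 tested genes. Black points with bars are the fit over all 8 libraries with unadjusted 95% intervals, red triangles the fit without sepsis 3 and blue squares the fit with library totals alone. Esrra, Perm1 and Ppargc1b stay below -1 in all 3 fits, Gabpa stays above 0.9, and Ppargc1a moves from -0.63 to -0.165 without sepsis 3.

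A single library carried much of the spread. Sepsis 3 had the lowest CPM of all 8 libraries for 6 of the 9 tested members, Ppargc1a, Ppargc1b, Perm1, Esrra, Esrrg and Tfam, and also for Esrrb. Of all genes tested, 22.7% had their lowest CPM there, and in 34.8% sepsis 3 was the lowest of the septic libraries. It was not the lowest septic library for Gabpa, Nrf1 or Pprc1. Without it the calls of Esrra, Perm1, Ppargc1b and Gabpa held, with log2 fold changes of -1.47, -1.38, -1.28 and 0.985. No library had a read of the brown fat gene Ucp1. In sepsis 3 the myofibre markers summed to 109370 CPM, the highest of the septic libraries. The adipocyte markers there summed to 47.9 CPM, within the control range of 31.3 to 61.8 CPM. The 6 slow myofibre markers were at 270 CPM there, against 337 to 558 CPM in controls, and the part of this in the low values was not tested.

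The gene lists below were chosen with earlier results of these data known, so their shares are a description and no test. Genes upstream of PGC-1 were more often lower than higher. Of 38 listed kinases, phosphatases and transcription factors that control PGC-1α, 35 were tested, 15 (42.9%) fell and 4 (11.4%) rose, against 25.2% of all tested genes each way, with a median log2 fold change of -0.21 against 0.01 over all genes. The calmodulin kinase gene Camk2a went from 629 ± 48.7 to 64.9 ± 31.4 CPM, a log2 change of -3.27 (SE 0.30), and the calcineurin subunit genes Ppp3ca and Ppp3cb fell with -0.98 and -1.10. Mef2c, a factor that calcineurin and calmodulin kinases act on, fell from 1467 ± 98.9 to 421 ± 276 CPM with an adjusted p of 0.0133 in edgeR, and its call was lost without sepsis 1 (adjusted p of 0.0543). The list's other genes of these families were named after their values were seen. Camk2b, Camk2g and the calcineurin regulatory subunit gene Ppp3r1 fell with -1.04, -0.45 and -0.69, and the call of Camk2g was lost in 3 alternatives, among them library totals alone at -0.042. Camk2d had 0.27 (SE 0.13), Mef2a 0.28 (SE 0.13) and Mef2d 0.25 (SE 0.10) without passing, and each passed as higher with library totals alone and without sepsis 2. The kinase kinase gene Camkk2 had 0.22 (SE 0.32). Of the catalytic AMP kinase genes, Prkaa1 rose with 1.03 (SE 0.30), a call lost without sepsis 2 (0.861, adjusted p of 0.0516). Prkaa2, the main form in muscle, had 0.13 (SE 0.11) and passed with library totals alone at 0.541. Most other AMP kinase subunit genes on the list, also named after their values were seen, were lower. Prkab2, Prkag1, Prkag2 and Prkag3 fell with -0.99, -0.84, -1.22 and -3.55, and Prkab1 had 0.44 without passing. The kinase gene Stk11 fell with -0.72. Besides Prkaa1, the genes of the list that rose were Foxo1, Foxo3 and Gsk3b, also named after their values were seen. They had 1.56 (SE 0.49), 0.94 (SE 0.23) and 1.06 (SE 0.13). Scaled by library totals alone, 12 genes of the whole list rose and 11 fell, where 43.4% of all tested genes rose and 14.1% fell. The list's median was then 0.202, and under TMM without sepsis 2 the number higher was 7.

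Of 20 tested coactivator partners and corepressors, 5 (25.0%) were higher and 4 (20%) lower, close to the 25.2% of all tested genes each way. Smarcd3, a chromatin remodelling subunit of muscle, was at 99.2 ± 16.5 CPM in controls and 25.5 ± 10.2 CPM in sepsis, a log2 fall of -1.96 (SE 0.26), the acetyltransferase gene Kat2b fell with -0.99, and the acetyltransferase gene Crebbp rose with 0.66. The corepressor genes Nrip1 and Ncor1, which oppose PGC-1 and ERR, had 0.24 (SE 0.20) and 0.19 (SE 0.10), and the PGC-1α deacetylase gene Sirt1 had 0.67 (SE 0.29) with an adjusted p of 0.0707 in edgeR. All 3 passed as higher with library totals alone, Sirt1 with an adjusted p of 0.00583. Ncor1 also passed without sepsis 2 (adjusted p of 0.0225), and Sirt1 without control 2 (0.0453) and without sepsis 2 (0.0169). Library totals alone gave 9 higher and 2 lower on this list. Leaving out control 3 or sepsis 1 left 3 higher, leaving out sepsis 3 left 2 higher, and 2 were lower without control 3, control 5 or sepsis 3.

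Nuclear receptors that pair with or share PGC-1 were lower in 8 of 24 tested cases (33.3%) and higher in 4 (16.7%), against 25.2% of all tested genes each way. Rxrg, a retinoid X receptor gene of muscle, fell from 51.7 ± 3.09 to 5.70 ± 2.92 CPM, which is -3.20 (SE 0.24) on the log2 scale. Rora and Nr1h2, which encode RORα and the liver X receptor β, rose with 1.59 (SE 0.14) and 1.05 (SE 0.15). The PPAR genes did not pass, with 0.62 (SE 0.50) for Ppara, -0.09 (SE 0.22) for Ppard and 0.39 (SE 0.33) for Pparg. Scaling by library totals alone put 6 above and 4 below, where all tested genes gave 43.4% and 14.1%.

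Of the 11 tested genes listed beside NRF-1, GABP and YY1, 6 (54.5%) rose and none fell in edgeR with TMM. Among all tested genes 25.2% went each way, and the median log2 fold change was 0.49 over the list against 0.01. The 6 were Yy1, Sp1, Nfe2l1, Nfe2l2, Zbtb7a and Myc, of which Nfe2l1 and Nfe2l2 only share a nickname with Nrf1. At an unadjusted p under 0.05 the count lower was 0 as well, as it was with DESeq2 and with limma-voom, and 1 gene, Gabpb2, was lower without control 1, at -0.583 and an adjusted p of 0.0287. Yy1, which recruits PGC-1α to mitochondrial genes, went from 59.3 ± 8.04 to 106 ± 21.7 CPM with 0.85 (SE 0.15), and the stress factor gene Nfe2l2 rose with 1.32 (SE 0.21). Myc rose with 1.82 (SE 0.38) from 2 to 4 reads per control library to between 11 and 17 per septic library. The genes of the β subunits that GABPα needs, Gabpb1 and Gabpb2, did not pass, with 0.28 (SE 0.42) and -0.44 (SE 0.23).

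Of 30 tested genes that transcribe, copy and process mitochondrial DNA and its RNA, 4 (13.3%) rose and 4 (13.3%) fell, against 25.2% of all tested genes each way, with a median log2 fold change of 0.09 against 0.01. Lrpprc, which stabilises mitochondrial mRNAs, fell from 183 ± 26.9 to 49.1 ± 22.4 CPM, or -1.89 (SE 0.28) in log2 terms, and the mitochondrial exonuclease gene Mgme1 fell with -1.51 (SE 0.22). Rexo2, which degrades short mitochondrial RNAs, rose from 87.5 ± 5.12 to 171 ± 3.38 CPM with 0.96 (SE 0.10). The mitochondrial RNA polymerase gene Polrmt and the transcription factor genes Tfb1m and Tfb2m had 0.39 (SE 0.17), -0.24 (SE 0.28) and 0.02 (SE 0.15) without passing. With library totals alone Polrmt and Tfb2m passed as higher, at 0.798 and 0.442, 14 of the list were higher and 3 lower (all tested genes, 43.4% and 14.1%), and without sepsis 1 the number higher was 2 and the median -0.0141.

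Textbook targets of PGC-1 and ERR fell in 32 of 44 tested cases (72.7%) and rose in 5 (11.4%), against 25.2% of all tested genes each way. The median log2 fold change was -0.71 against 0.01. This list too was chosen with earlier results known. All 10 myofibre markers were lower as well, and the part of the myofibre shift in this list was not tested. The adenine nucleotide carrier gene Slc25a4, cytochrome c1 (Cyc1) and the TCA cycle gene Idh3a fell with -1.80 (SE 0.12), -2.20 (SE 0.15) and -1.72 (SE 0.13). Ckmt2, a mitochondrial creatine kinase, and Fndc5, the precursor of irisin, fell from 503 ± 35.4 to 132 ± 52.5 CPM and from 64.1 ± 4.79 to 13.0 ± 5.92 CPM. Cycs and Cs fell with -1.85 and -1.28. Cpt1b, the gate of fatty acid entry, had -0.41 (SE 0.15) with an adjusted p of 0.0327 in edgeR, and that call was lost in 9 alternatives, among them library totals alone at -0.0104. Pdk4 went the other way, with 2.65 (SE 0.62), a call lost without sepsis 3 at 2.31 (adjusted p of 0.0511). The other targets that rose were Cd36, Fabp3, Acadvl and Kyat3, named after their values were seen. They had 1.077 (SE 0.177), 0.965 (SE 0.257), 0.488 (SE 0.173) and 1.012 (SE 0.293). Among further fatty acid genes of the list, Acadm fell with -0.925. Hadha, Hadhb, Etfdh, Slc25a20 and Lpl did not pass, with 0.021, 0.104, 0.267, 0.294 and -0.358. Vegfa had -0.82 (SE 0.32) with an adjusted p of 0.0576 in edgeR. It passed in 4 alternatives, with DESeq2 (adjusted p of 0.0178), the stricter filter (0.0422), upper-quartile factors (0.0447) and without sepsis 1, at -1.43. Scaled by library totals alone, 9 targets rose and 22 fell at a median of -0.294, where 43.4% of all tested genes rose and 14.1% fell at a median of 0.433, and under TMM 3 were higher without sepsis 1 and 2 without sepsis 3.

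**Figure D4:**
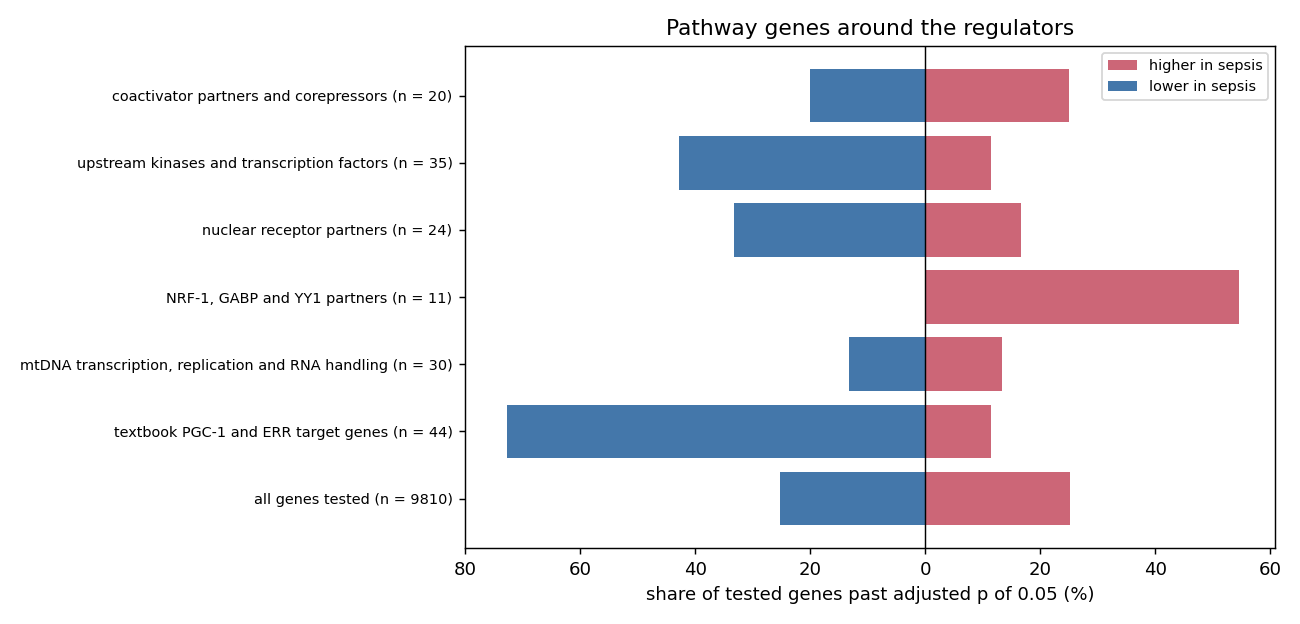
Share of tested genes (%, horizontal axis) past an adjusted p of 0.05 in each of the 6 pathway lists and among all 9810 genes tested. Bars to the right are genes higher in sepsis and bars to the left genes lower, under TMM scaling. The target list has 32 of 44 genes lower and the NRF-1, GABP and YY1 list 6 of 11 higher and none lower, while 25.2% of all genes go each way. The lists were chosen with earlier results of these data known.

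The genes most like 2 members across the 8 libraries were listed by Pearson correlation of log2 CPM, as a description, since the libraries fall into 2 groups. For Esrra they included Prss23, Coq5, Rcan2 and Cd55, with r from 0.994 to 0.995. For Ppargc1a they were Rnf139, Asph, Polb, Thrb and Myom2, with r from 0.967 to 0.978. Ppargc1a itself was at 66.5 and 70.4 CPM in sepsis 1 and 2, within the controls, and at 12.1 CPM in sepsis 3. Its r values thus rest largely on sepsis 3 and not on the 2 groups. The thyroid hormone receptor gene Thrb, the closest nuclear receptor gene to Ppargc1a, was at 23.7, 22.3 and 5.94 CPM in sepsis 1 to 3 and at 23.0 to 28.6 CPM in controls.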

How the data were processed

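RNA from the gastrocnemius of 8 samples was made into QuantSeq 3′ libraries from 25 ng of total RNA, per the labels' protocols. The deposited table holds raw counts per gene as the authors left them, 1 column per library. The build was GRCm39, per the submitters' processing notes, and the aligner, counter, strand setting and annotation are not given in the sources used here. Libraries were grouped by their titles. EdgeR 4.0.16 in R 4.3.3 tested sepsis against control over all 8 libraries with no covariate, after its expression filter (minimum count 10, total 15). It used TMM factors, robust quasi-likelihood dispersion and Benjamini-Hochberg adjustment. The fit was also run on simulated counts in which few genes changed, in both directions. That setting does not test the scaling of data in which 50.4% of genes passed. SE is the absolute log2 fold change divided by the square root of F, and 95% intervals use the fit's degrees of freedom and are unadjusted. Log2 CPM used a prior count of 2. Intervals on reads and shares cover counting error only, because without molecular identifiers repeated reads may stem from 1 molecule. Alternatives, 17 in all, changed scaling, filter, test (DESeq2 1.42.0 or limma 3.58.1 voom with sample weights), block or library set.

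The members and gene lists were chosen with earlier results of these data known. Named genes are all 10 members, up to 3 genes with the smallest p from each list and 22 key genes, and the 5 genes most like Esrra and Ppargc1a, of which 1 is not reported here. Trmt112, Atp5j and Ldb1 were added as overlapping neighbours, and 7 calcium signalling genes after their values were seen. Further genes of the upstream, target and NRF-1 lists were also named after their values were seen, and were not followed singly over the alternatives. Neighbours and promoters come from GRCm38 annotation, a build other than that of the counts.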

Additional observations from a re-analysis of the deposited data

Results flagged for a closer look

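In each group of 5 controls, the library farthest from the others was compared with Dixon's 95% limit for 49 members and genes named by the rule, and 5 stood out. Chance alone flags about 1 in 20 such groups. No member was among them. Control 1 was low for Rxrg, at 46.4 CPM against 52.3 to 54.3 in the other controls, for Yy1, at 45.5 against 60.3 to 66.2, and for Cpt1b, at 102 against 115 to 118. Control 5 was high for Rora, at 383 CPM against 264 to 287, and low for Lrpprc, at 135 CPM against 192 to 200. Groups of 3 septic libraries are too small for this comparison.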

How the results depend on the processing

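Esrra, Perm1, Ppargc1b and Gabpa kept their direction and their call in all 17 alternatives. Library totals alone shifted the median over all genes, in log2, from 0.01 to 0.433, with 4256 genes higher and 1387 lower in place of 2475 and 2468, and 3 members higher (Gabpa, Nrf1 and Pprc1) in place of 1. That setting also turned Esrrg to 0.00132, Tfam to 0.0308, Ppard to 0.32 and Tfb1m to 0.186. Leaving out each library in turn, Ppard ranged from -0.187 without sepsis 1 to 0.0912 without sepsis 2, and Ppara from -0.256 without sepsis 1 to 0.962 without sepsis 3. Tfb2m, at 0.02 in all libraries, was -0.00498 with the stricter filter (20 reads in 3 libraries), -0.0193 with upper-quartile factors, and -0.0362, -0.0161 and -0.0809 without control 1, control 4 and sepsis 1, and reached 0.108 without sepsis 3. Camkk2, at 0.22, was -0.0381 with the replicate block, and over single libraries left out it ranged from -0.00665 without control 5 to 0.369 without control 1. The cause was not tested. With the replicate number as a block over replicates 1 to 3, which also leaves out controls 4 and 5, 3559 genes passed in place of 4943, 3 members were lower and 1 higher. The numbers share no stated animal, deviations of same-numbered libraries correlated at -0.124, 0.0409 and -0.0196, and 1 of the 6 libraries numbered 1 to 3 correlated best with its own number. Low reads limit Esrrb, Pprc1, Esrrg, Gabpa, Nrf1 and Myc, and the shares in sepsis 3. Gabpa had 20 to 31 reads per control and 62 to 66 per septic library.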

Other observations

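Genes whose promoter window holds a motif of this network were counted over the 7832 tested genes that have a window, of which 25.5% were higher and 24.6% lower past the threshold in edgeR. Of the 21 with the full ERR element TCAAGGTCA, 9 were lower and 4 higher, with a median log2 fold change of -0.42, against 0.02 over all genes with a window. Of the 296 with its core AAGGTCA, 31.4% were lower and 23.3% higher. The ETS element CCGGAAGT of the GABP type was found at 775 tested genes, of which 15.9% were lower and 29.0% higher, with a median of 0.21. The full NRF-1 element was found at 200, with 22.5% lower and 22.5% higher. The cAMP response element TGACGTCA was found at 290, with 28.3% lower and 21.7% higher. These are counts under TMM scaling with no test, and genes with 1 motif share base composition and position.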
